A study of Mus musculus with 40 samples.

Results

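H3K4me3, the trimethylation of lysine 4 of histone H3, was compared between high-fat diet (HFD) and normal chow diet (NCD) in the brown adipose tissue of mice kept in the cold. The members were the genomic regions covered by an H3K4me3 peak in any of 4 deposited lists, 2 from cold-exposed NCD mice (mice 4 and 5) and 2 from cold-exposed HFD mice (mice 10 and 11). Peaks that overlapped by at least 1 bp were joined, which gave 27652 regions, and each region was sorted by the lists in which it held a peak. A region in both NCD lists and neither HFD list is called NCD-only, and the reverse HFD-only. This presence is what the sorting used, so it is described and not tested. The 4 lists belong to a series of 40 samples from 8 mice, whose 8 H3K4me3 lists together gave 28739 regions. All mice were wild type C57BL/6N, an inbred strain, aged 20 weeks, and the interscapular brown adipose tissue (iBAT) was taken. Mice 10 and 11 had started HFD at 8 weeks of age and stayed on it for 12 weeks, mice 4 and 5 were given NCD throughout, and all 4 were held at 4 °C for 24 h before the tissue was taken. Mice 1 and 2 on NCD and mice 7 and 8 on HFD were the warm counterparts, with 2 mice in each of the 4 conditions. The methods can be read as tissue pooled from a pair of mice in each sequencing experiment, so a list need not stand for 1 animal. Whole tissue was used, so a cell type that became rarer and a loss of the mark within cells cannot be told apart.

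Brown adipose tissue burns fatty acids to make heat through uncoupling protein 1. H3K4me3 is laid down at gene starts by methyltransferases of the COMPASS family, which are drawn to unmethylated stretches rich in CpG, the dinucleotide of cytosine followed by guanine. The mark is found at active and poised promoters, and broad domains of it cover genes that define a cell type. H3K27ac, the acetylation of lysine 27, marks active promoters and enhancers.

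The lists differed in ways that bear on every comparison. Mouse 4 had 22321 peaks, mouse 5 had 22692, mouse 10 had 17195 and mouse 11 had 24104, so the NCD mice lay between the HFD mice. Median fold enrichment over the local background was 11.8 (mouse 4) and 28.6 (mouse 5) on NCD, against 7.79 (mouse 10) and 11.8 (mouse 11) on HFD. Peak number, median peak width, share of peaks at a start site and median fold enrichment gave two-sided exact permutation p of 0.333 or above between diets (adjusted p = 1.0 for each of the 4), and 0.333 is the smallest that 2 against 2 mice can give. The ChIP pileup at each summit, which is the stacked fragment count the peak caller compared with its background, was recovered from the fold and the −log10 p. Over 9827 regions with a peak in all 8 H3K4me3 lists, the recovered pileups of mice 4 and 5 correlated with each other at Spearman's rho of 0.959 and with those of the other 6 mice at 0.776 to 0.870, a range that overlapped the 0.817 to 0.912 of pairs among those 6. With the warm NCD mice 1 and 2 they correlated at 0.802 to 0.824, whereas the cold HFD mice 10 and 11 correlated with mice 1 and 2 at 0.868 to 0.886. By this measure the warm NCD mice were more like the cold HFD than the cold NCD mice. All 15 of the brown adipocyte markers had a region at a start site, 14 of them in all 4 lists. All 12 endothelial markers had one too, 11 of them in all 4 lists. Of the fibroblast and preadipocyte markers 9 of 11 had one, of the macrophage markers 5 of 15 and of the lymphocyte markers 1 of 12. Over all genes with a region 82.6% had one in all 4 lists, so these counts do not single out brown adipocytes.

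Sequences from 4 NCD-only and 3 HFD-only regions described below are given with every CG in capitals, to show how their CG content ranges. For Lep it is the RefSeq promoter window on GRCm38.p6 (chr6:29059971-29060270, plus strand), which holds 19 CG in 300 bases against a median of 7 over 32851 such windows. The whole Lep region had a GC content of 51.3%, the lowest of the 10 strongest NCD-only regions. The others are plus strand windows of 200 bases of GRCm38 centred on the summit of the strongest peak, for Acvr1c chr2:58324506-58324705, for Jag2 chr12:112930060-112930259, for Gm15551 chr3:126668712-126668911, for Creb3l2 chr6:37442575-37442774, for C1ra chr6:124512648-124512847 and for Nnmt chr9:48604499-48604698.
Lep, NCD-only: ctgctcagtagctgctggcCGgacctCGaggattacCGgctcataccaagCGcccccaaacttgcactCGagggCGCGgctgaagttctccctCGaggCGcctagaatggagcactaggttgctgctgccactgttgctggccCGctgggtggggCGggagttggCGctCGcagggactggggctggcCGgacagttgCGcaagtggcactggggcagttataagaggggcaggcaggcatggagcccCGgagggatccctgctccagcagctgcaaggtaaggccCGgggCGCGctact
Acvr1c, NCD-only: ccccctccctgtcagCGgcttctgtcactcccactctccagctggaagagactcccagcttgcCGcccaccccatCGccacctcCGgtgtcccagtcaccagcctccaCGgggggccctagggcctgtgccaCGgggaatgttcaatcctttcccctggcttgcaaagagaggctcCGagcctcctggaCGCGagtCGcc
Jag2, NCD-only: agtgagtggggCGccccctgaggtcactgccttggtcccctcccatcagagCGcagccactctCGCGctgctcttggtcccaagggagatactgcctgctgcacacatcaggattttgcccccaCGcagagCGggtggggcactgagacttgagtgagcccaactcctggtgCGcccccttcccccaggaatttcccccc
Gm15551, NCD-only: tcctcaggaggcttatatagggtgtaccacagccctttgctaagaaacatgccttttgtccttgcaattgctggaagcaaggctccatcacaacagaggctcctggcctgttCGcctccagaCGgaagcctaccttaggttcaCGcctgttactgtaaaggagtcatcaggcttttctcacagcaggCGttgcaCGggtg
Creb3l2, HFD-only: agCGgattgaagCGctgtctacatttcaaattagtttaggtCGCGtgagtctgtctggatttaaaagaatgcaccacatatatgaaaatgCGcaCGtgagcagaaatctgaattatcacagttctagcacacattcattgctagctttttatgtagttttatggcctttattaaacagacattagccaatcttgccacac
C1ra, HFD-only: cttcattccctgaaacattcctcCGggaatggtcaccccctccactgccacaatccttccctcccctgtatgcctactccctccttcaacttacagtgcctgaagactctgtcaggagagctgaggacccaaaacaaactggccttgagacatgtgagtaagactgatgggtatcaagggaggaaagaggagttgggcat
Nnmt, HFD-only: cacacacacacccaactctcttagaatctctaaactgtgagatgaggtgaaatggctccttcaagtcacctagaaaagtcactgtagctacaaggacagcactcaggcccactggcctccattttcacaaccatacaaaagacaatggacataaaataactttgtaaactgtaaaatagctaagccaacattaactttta
The Acvr1c window holds 10 CG the Jag2 window 7 and the Gm15551 window 5, against 6 for Creb3l2, 1 for C1ra and 0 for Nnmt. Over all summit windows of 200 bases, the median number of CG was 7.0 for NCD-only regions, 3.0 for HFD-only regions and 14.0 for regions in all 4 lists.

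Most regions were shared between diets. Of the 27652 regions, 13716 held a peak in all 4 lists, 1334 (4.82%) were NCD-only and 216 (0.781%) were HFD-only. A further 4268 regions held a peak in mouse 11 alone and 3538 in every mouse but mouse 10, whereas 18 held one in mouse 10 alone. The excess of NCD-only over HFD-only regions depended on the number of peaks taken from each list. With the 17195 strongest peaks of each list, ranked by −log10 p, there were 723 NCD-only (3.76%) and 495 HFD-only (2.57%) of 19228 regions. With the 10000 strongest peaks, the order turned to 156 NCD-only and 308 HFD-only regions. It turned also without mouse 10, with 1346 NCD-only and 4499 HFD-only regions, while without mouse 11 there were 5100 and 467. No direction of gain or loss of H3K4me3 on HFD can be read from these counts.

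**Figure D1:**
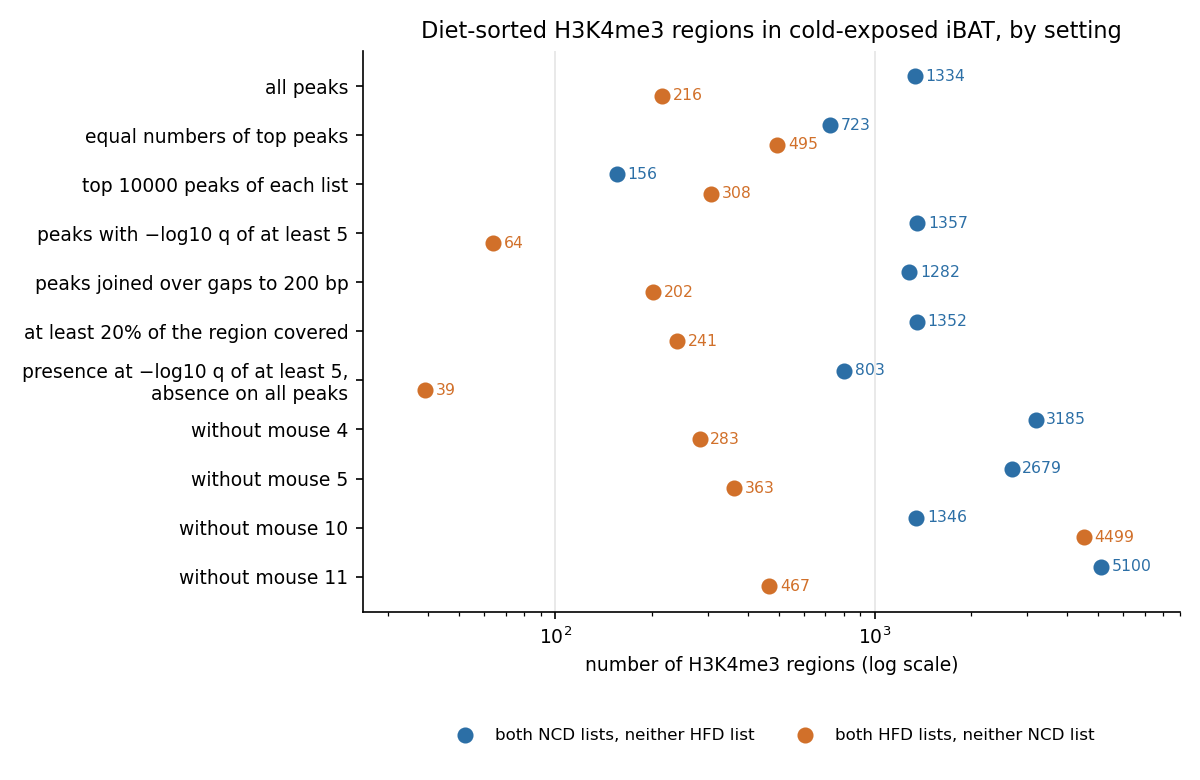
Number of H3K4me3 regions present in both lists of one diet and in neither of the other (log scale), for all peaks, for 6 other ways of defining presence and with each mouse left out. NCD-only regions outnumber HFD-only regions with all peaks (1334 against 216) but not with the 10000 strongest peaks (156 against 308) or without mouse 10 (1346 against 4499).

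The sets also changed in membership. Of the 1334 NCD-only regions, 179 (13.4%) overlapped an NCD-only region of the equal-number lists, which is 24.8% of the 723 found there. Of the 216 HFD-only regions, 167 (77.3%) overlapped an HFD-only region of the equal-number lists, which is 33.7% of the 495. Of the 723, 544 (75.2%) held a weaker peak in the full list of mouse 11, and the equal number took the whole list of mouse 10. Of the 495, 234 (47.3%) held a weaker peak in the full list of mouse 4 and 281 (56.8%) in that of mouse 5. Diet-sorted regions were mostly weak. The lower of the 2 percentiles of −log10 p had a median of 11.2 for NCD-only and 14.0 for HFD-only regions, where 50 is the middle of the list. Of 10457 regions above the middle of both NCD lists, 10389 held a peak in both HFD lists, 66 in 1 of them and 2 in neither. Of 8115 regions above the middle of both HFD lists, 8102 held a peak in both NCD lists, 9 in 1 of them and 4 in neither. At the edge of the sorting, 91 NCD-only regions had a −log10 q under 2 in an NCD list, and 52 of the 3547 regions kept out by 1 HFD peak had that peak under 2. For HFD-only regions the corresponding numbers were 28 of 216 and 7 of 190. The lowest −log10 q was 1.34 inside the NCD-only set and 1.36 inside the HFD-only set.

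Lists of the same diet shared a base-pair Jaccard index, the bases covered by both over the bases covered by either, of 0.768 for mice 4 and 5 but 0.571 for mice 10 and 11. The 4 pairs of different diets had 0.576 to 0.639, so by this index the HFD mice were no more alike than mice of different diets. The mean was 0.670 within and 0.598 between diets, with a one-sided exact permutation p of 0.333, the smallest that the 3 splits of 4 mice allow. By recovered pileup over the 9827 regions, mice 10 and 11 correlated at 0.876, against 0.776 to 0.870 for the cold pairs of different diets.

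Lep, which encodes the satiety hormone leptin, had the strongest NCD-only region at a start site. The region covered chr6:29059843-29062725 (2883 bp), and its summit lay 234 bp from a start site. Fold enrichment was 19.7 in mouse 4 and 46.9 in mouse 5, at percentiles of 56.3 and 57.4 of their lists, and no peak was called in mouse 10 or 11. The warm mice and the acetylation mark, which the sorting did not use, divided in the same way. In warm iBAT the region held an H3K4me3 peak with a fold of 16.3 in mouse 1 and 13.2 in mouse 2, both on NCD, and none in the HFD mice 7 and 8. For H3K27ac in the cold, fold enrichment was 4.30 in mouse 4 and 16.3 in mouse 5, and no peak was called in mouse 10 or 11. Lep was NCD-only with equal numbers of peaks as well, which its rank in both NCD lists fixed in advance. The other NCD-only region above the middle of both lists lay in an intron at chr17:13550685-13553150, 15981 bp from the nearest annotated start site.

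Gm15551, an antisense non-coding RNA gene that lies within Camk2d on the opposite strand, divided like Lep but at low enrichment. Its region (chr3:126668558-126669016, 459 bp) had an H3K4me3 fold of 6.44 in mouse 4 and 8.60 in mouse 5, against 5.36 in mouse 1 and 6.94 in mouse 2. None of the 4 HFD mice had a peak there in H3K4me3. The cold NCD mice also had an H3K27ac peak there, with a fold of 4.39 in mouse 4 and 11.1 in mouse 5, and the cold HFD mice had none. Its percentile was 15.2 in mouse 4, whose peak fell below the equal-number limit, and 25 in mouse 5, so that it was not NCD-only with equal numbers. Camk2d itself, a calcium-dependent protein kinase gene, held an H3K4me3 peak in all 8 mice.

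**Figure D2:**
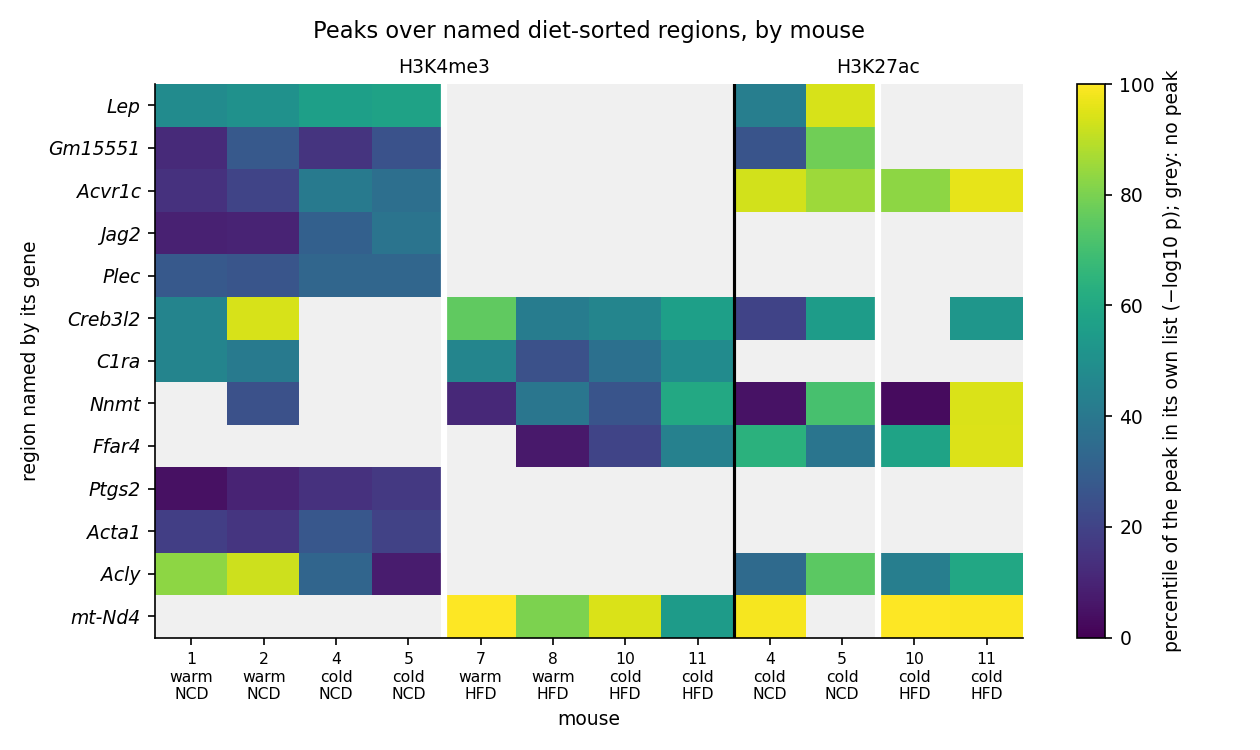
Percentile of the peak over each named region within its own list (0 to 100, ranked by −log10 p; grey where no peak was called), with H3K4me3 in 8 mice to the left and H3K27ac in the 4 cold mice to the right of the black line. Lep and Gm15551 hold peaks in every NCD mouse and in no HFD mouse in both marks, whereas in H3K4me3 Creb3l2 and C1ra lack a peak only in the cold NCD mice 4 and 5.

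Acvr1c, the gene for the activin receptor ALK7 that restrains lipolysis in fat cells, was the third NCD-only region at a start site by strength (chr2:58324384-58324872), with a fold of 13.5 in mouse 4 and 14.0 in mouse 5. The start site was internal, as the annotated gene begins at chr2:58357895 on the minus strand. This region held H3K4me3 in mice 1 and 2 (5.63 and 5.82) and not in mice 7 and 8, while all 4 cold mice had an H3K27ac peak there. Jag2, a Notch ligand, had a fold of 8.33 in mouse 4 and 15.5 in mouse 5. It again held a peak in both warm NCD mice and neither warm HFD mouse, but a weak one (4.83 and 4.52, at percentiles 9.27 and 9.91). Plec, which encodes the cytolinker plectin, followed the same pattern with 8.21 and 12.1 in the cold, also at an internal start site. The warm HFD lists were shorter, with 13517 and 19079 peaks in mice 7 and 8 against 20304 and 21024 in mice 1 and 2. Whether weak peaks were missed there was not tested. Lrrc8e, a subunit of volume-regulated anion channels, was the second by strength and was marked in 1 of the 2 warm NCD mice. The other 5 regions of the 10 strongest were at 1700001L05Rik, Gm3264, Morn4, Tmem52 and Aadat. Of these 10 regions, 6 held a peak in both warm NCD mice and 1, at Aadat, held a peak in a warm HFD mouse. All 10 were NCD-only with equal numbers of peaks. Their ranks fixed this in advance, since taking fewer peaks adds none on HFD.

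The same division can be counted over the whole set. Of the 1334 NCD-only regions, 186 (13.9%) held H3K4me3 in both warm NCD mice and neither warm HFD mouse, against 2250 (8.14%) of all 27652 regions. For H3K27ac in the cold, 51 (3.82%) were in both NCD and neither HFD mouse, against 398 (1.44%) of all regions. Both held for 15 of the 1334 NCD-only regions, against 69 of all 27652. Of these 15, 8 were at a start site: Lep, Gm15551, Il16, Slc37a4, Cuedc2, the shared start of Cryab and Hspb2, 9530020I12Rik and BB123696. Il16 encodes a chemoattractant cytokine, Slc37a4 the glucose-6-phosphate transporter of the endoplasmic reticulum, and Cryab and Hspb2 small heat shock proteins.

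HFD-only regions at nuclear genes were, in contrast, mostly regions that the cold NCD mice lacked and the warm NCD mice had. The strongest lay at Creb3l2 (chr6:37442462-37442975), a transcription factor of the endoplasmic reticulum, with a fold of 9.02 in mouse 10 and 13.9 in mouse 11. The 4 warm mice held a peak there too, with a fold of 14.5 and 47.3 in the NCD mice 1 and 2 and of 9.48 and 8.31 in the HFD mice 7 and 8. H3K27ac peaks were called there in mice 4, 5 and 11. C1ra, a subunit of complement C1, behaved likewise, with 7.93 and 11.1 in mice 10 and 11 and 4.89 to 14.7 in the warm mice. At Nnmt, nicotinamide N-methyltransferase, the HFD mice had 6.24 and 18.8 in the cold and 4.23 and 7.26 when warm, while of the NCD mice mouse 2 alone had a peak (6.10). H2afv, which encodes a variant of histone H2A.Z, and the non-coding genes Gm26510, Gm26863, Gm47752 and AC124518.3 completed the nuclear regions among the 10 strongest. Of the 10 strongest, 7 held a peak in both warm NCD mice and 6 in both warm HFD mice. All 10 were HFD-only with equal numbers of peaks, which their ranks likewise fixed in advance. The regions at Creb3l2, C1ra and H2afv lay beside the annotated start and did not cover it, with summits 529, 343 and 452 bp away. Ffar4, a receptor for long-chain fatty acids, was singled out after its values were seen. It had an HFD-only region at chr19:38096052-38096714 with a fold of 5.76 in mouse 10 and 9.25 in mouse 11, and 1 warm HFD mouse (2.95 in mouse 8) but no warm NCD mouse had a peak there. All 4 cold mice held H3K27ac at that position. The annotated start of Ffar4 lay in a separate region (chr19:38096842-38101719), which held an H3K4me3 peak in all 4 cold lists. Its log2 pileup, fitted as described below, differed by 0.20 ± 0.13 (limma adjusted p = 0.338) and was not called.

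The strongest HFD-only regions of all lay on the mitochondrial genome, which carries no nucleosomes; strength here is the lower percentile of −log10 p in the 2 lists. Regions over mt-Nd4 and mt-Nd5 and over mt-Co1, mt-Nd1 and mt-Nd2 were HFD-only, and the H3K4me3 lists of all 4 HFD mice held 2 to 5 mitochondrial peaks covering 10600 to 15569 of 16299 bp, against 0 in all 4 NCD mice. Their highest fold was 2.41 and 1.38 in the cold mice 10 and 11 and 3.77 and 1.92 in the warm mice 7 and 8. An HFD-only region at chr1:24611615-24616114 (GC content 36.3%, against 37.1% and 37.3% for the mitochondrial regions) was likewise in all 4 HFD and no NCD lists. In H3K27ac the cold NCD mice also had mitochondrial peaks, 5 in mouse 4 and 1 in mouse 5, against 4 each in mice 10 and 11. These regions are no measure of histone methylation, and were counted among the 216.

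The gene lists pointed to few genes. Of 16393 genes with a region at a start site, 316 (1.93%) had an NCD-only and 54 (0.329%) an HFD-only one. Of the 243 such genes on 20 lists of adipocyte, metabolic and cell type genes, 9 had an NCD-only and 0 an HFD-only region. Of the white adipocyte and adipokine list, 12 genes had a region, 5 of them in all 4 lists and 4 NCD-only: Lep, the homeobox gene Hoxc9, Nnat, which encodes neuronatin, and Sncg, which encodes gamma-synuclein and also had a region in all 4 lists. Ranked by −log10 p, the peaks of mice 4 and 5 stood at percentiles 24.6 and 29.3 of their lists at Nnat and 10.6 and 4.20 at Hoxc9, so these were weaker than Lep. Neither held a peak in any warm mouse. Of the 19 genes of the skeletal muscle list, 12 had no region. Of the other 7, 3 had one in all 4 lists and 3 had an NCD-only one. The NCD-only ones were at Acta1, the skeletal actin gene, Pygm, which encodes muscle glycogen phosphorylase, and Jph2, which encodes junctophilin. With equal numbers of peaks 0 muscle genes were NCD-only. Muscle adjoins this depot, and the part of muscle tissue in these values was not tested. At Acly, the ATP citrate lyase gene of lipogenesis, a side region was NCD-only next to a region in all 4 lists. Over all genes with a region, 82.6% had one in all 4 lists. All of the 18 fatty acid oxidation genes, 21 respiratory chain genes, 16 insulin signalling genes and 15 circadian clock genes had a region in all 4 lists, and none had a diet-sorted one. Extracellular matrix genes had a region in all 4 lists for 10 of 20, and 6 of the other 10 had one in every mouse but mouse 10, as at Col1a1 and Fn1. With equal numbers of peaks, 5 list genes were NCD-only and 0 HFD-only, against 272 and 139 over all genes.

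The sets differed in base composition. Median GC content was 58.6% for NCD-only, 44.8% for HFD-only and 54.9% for regions in all 4 lists. Of the HFD-only regions 83.3% lay under 50% GC and 0.0% above 60%, whereas of the NCD-only regions 0.902% lay under 50% and 33.4% above 60%. At start sites alone the medians were 60.3% and 43.6%, against 56.0% for all regions at start sites. With equal numbers of peaks they were 59.3% and 46.3%. The ratio of observed to expected CpG was lower in both sets (0.375 and 0.292) than in regions in all 4 lists (0.615), and both were narrower, with a median width of 448 bp and 694 bp against 1749.5 bp. Start sites of any annotated gene held 23.8% of NCD-only and 25.5% of HFD-only regions, against 83.3% of regions in all 4 lists. Introns held 37.5% and 44.4%, against 7.02%. The part of library GC bias in the sorting was not tested.

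**Figure D3:**
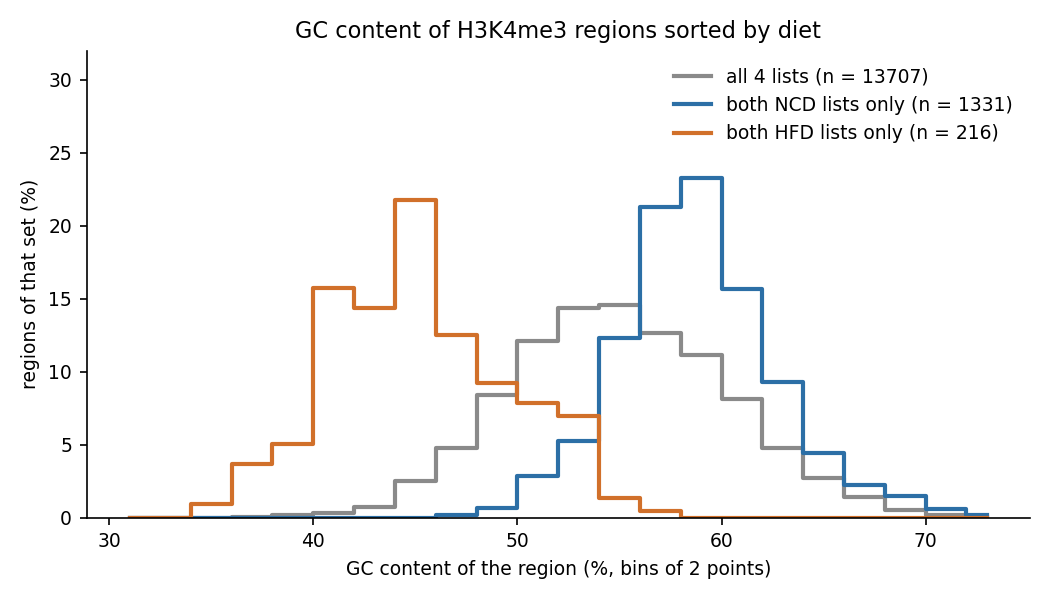
Share of each set of H3K4me3 regions (%) by GC content in bins of 2 percentage points, for regions in all 4 cold lists, in both NCD lists only and in both HFD lists only. The NCD-only regions (median 58.6%) and HFD-only regions (median 44.8%) lie to either side of the shared regions (median 54.9%).

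Peaks in libraries that the sorting did not use were counted over the same regions. Of the 1334 NCD-only regions, 23.2% held an H3K4me3 peak in mouse 1 and 30.6% in mouse 2, against 0.0750% in mouse 7 and 4.80% in mouse 8. The warm diets did not overlap, with a mean of 26.9% on NCD and 2.44% on HFD (two-sided exact permutation p = 0.333, adjusted p = 0.667 over 4 tests). For the 723 NCD-only regions of the equal-number lists the means were 72.5% on NCD and 12.2% on HFD. Of the 216 HFD-only regions, 61.1% and 69.4% held a peak in mice 1 and 2, against 27.3% and 67.6% in mice 7 and 8, so the warm diets overlapped (exact permutation p = 0.667). Of these 216 regions 22 were in both warm NCD and neither warm HFD mouse, a pattern that 2250 (8.14%) of all 27652 regions had. The reverse held for 4 (1.85%, against 0.0362% of all regions), 3 of them the mitochondrial regions and the region on chromosome 1. Regions in all 4 cold lists held a peak for 99.1% and 99.3% in the warm NCD mice, and 72.1% and 97.0% in mice 7 and 8, and mouse 7, which had the shortest list, had the lowest share in every set. For H3K27ac in the cold, 29.2% and 30.2% of NCD-only regions held a peak in mice 4 and 5, against 12.2% in mouse 10 and 28.4% in mouse 11 (exact permutation p = 0.333, adjusted p = 0.667). Over regions in all 4 cold lists the shares were 56.8% and 74.8% on NCD and 33.7% and 75.1% on HFD. The mean there was 65.8% on NCD and 54.4% on HFD, a difference of −11.4 points. For NCD-only regions it was 29.7% and 20.3%, a difference of −9.41 points. Both sets were thus lower on HFD, from unlike shares on NCD. Mouse 10 had the shortest H3K27ac list, with 14511 peaks against 30544, 30495 and 40604 in mice 4, 5 and 11. For HFD-only regions the shares were 69.0% and 55.6% on NCD and 52.3% and 74.1% on HFD (exact permutation p = 1.0). The acetylation mark was thus present at most HFD-only regions on either diet.

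**Figure D4:**
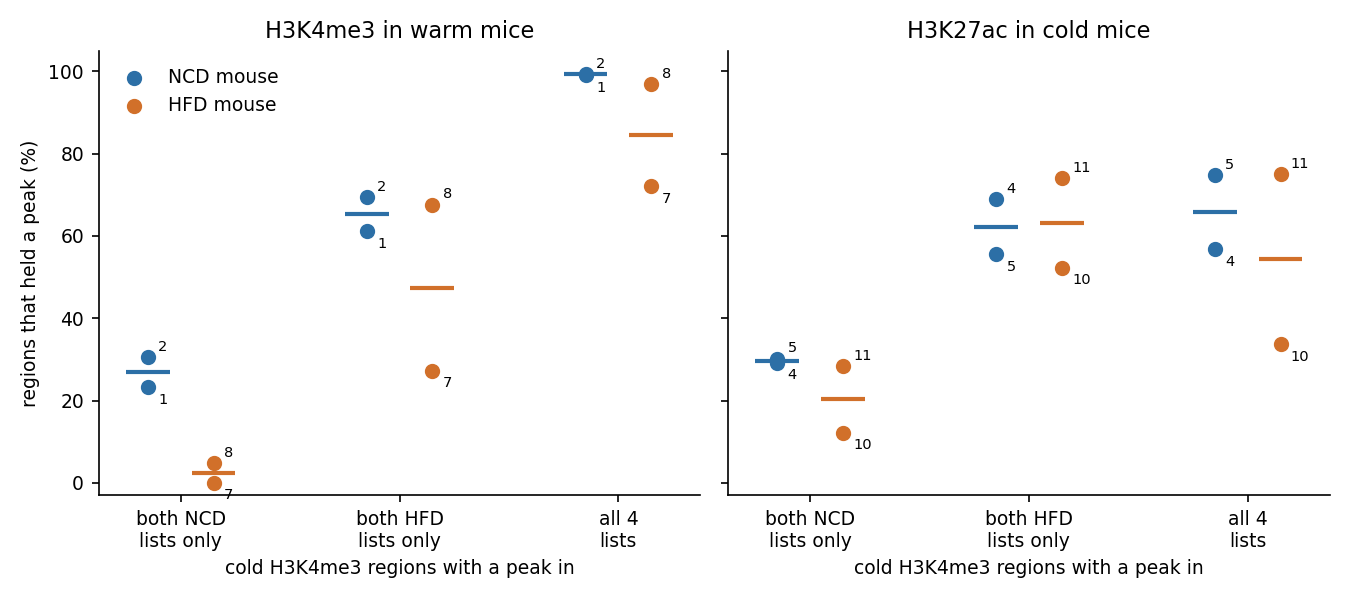
Share of the cold H3K4me3 regions that held a peak (%) in libraries the sorting did not use, with H3K4me3 in warm mice to the left and H3K27ac in cold mice to the right. Each point is a mouse with its number beside it and bars are means of 2 mice. Between warm diets the NCD-only regions separate (23.2% and 30.6% against 0.0750% and 4.80%), whereas HFD-only regions are as common in warm NCD mice as in mouse 8.

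At regions with a peak in all 4 lists, the height of the peak was compared. Fold enrichment called 0 of 13716 regions (0.0%) in either direction by limma with the Benjamini-Hochberg adjustment at 0.05, and 251 had an unadjusted p under 0.05. Fold enrichment varied with the local background of each library: over the 9827 regions of the 8 mice it correlated at only 0.307 between mice 4 and 5, whose recovered pileups correlated at 0.959. The same fit on the −log10 p called 256 regions higher and 6 lower on HFD. The recovered pileup was therefore also fitted, a choice made after the data were seen. It was compared as log2(pileup + 1) after quantile normalization, and differences below are HFD minus NCD on that scale.

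By pileup, 1054 of 13640 regions (7.73%) were higher and 393 (2.88%) lower on HFD. Centring each library within 20 bins of GC content called 974 (7.15%) higher and 491 (3.6%) lower, of which 813 and 229 were calls of the fit without it. Median centring in place of quantile normalization called 2116 higher and 437 lower, with 1049 of the 1054 but 174 of the 393 still called. The calls depended on which mice were included. Without mouse 4, mouse 5 or mouse 10 there were 0, with 1375 to 6072 regions at an unadjusted limma p under 0.05, and without mouse 11 there were 722 higher and 574 lower. Since mice 4 and 5 were also less like the warm NCD mice than mice 10 and 11 were, a difference between the diets and a difference between these libraries cannot be told apart.

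Phb, which encodes prohibitin of the inner mitochondrial membrane, and Glmp, a lysosomal membrane protein gene, had the smallest adjusted p among regions higher on HFD. At Phb (chr11:95666129-95668192) the normalized log2 pileup was 5.17 and 5.31 in mice 4 and 5, against 7.26 and 7.48 in mice 10 and 11. The diets did not overlap, with a difference of 2.13 ± 0.14 (SE; limma adjusted p = 7.87e-05, n = 2 mice per diet). At Glmp the values were 5.57 and 5.58 against 7.38 and 7.45. The others of the 10 were Cwf19l2, Clec2d, Med6, Rpl7l1, Ctnnd1, Ifi27, the shared start of Ddx25 and Pus3, and Lin37. Med6 encodes a Mediator subunit, Ctnnd1 the junction protein p120 catenin and Ifi27 an interferon-induced mitochondrial protein. All 10 remained called with GC centring.

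In the general adipocyte list, 8 of 23 regions were higher and 0 lower on HFD (median difference 0.29), against 6.67% higher and 2.51% lower of 11372 regions at start sites (median −0.05). With GC centring the list gave 7 higher and 1 lower. Cd36, the fatty acid translocase, had 2 called regions. At the stronger (chr5:17843160-17850795) the normalized log2 pileup was 3.46 and 4.27 in mice 4 and 5, against 6.59 and 7.01 in mice 10 and 11, a difference of 2.93 ± 0.27 (SE; limma adjusted p = 0.000157). The RefSeq promoter window in the second region (GRCm38.p6, chr5:17835847-17836146, minus strand) is shown because it is poor in CG, with 3 in 300 bases. Low counts were common, as 43.6% of 32851 such windows held 5 or fewer.
Cd36, higher on HFD: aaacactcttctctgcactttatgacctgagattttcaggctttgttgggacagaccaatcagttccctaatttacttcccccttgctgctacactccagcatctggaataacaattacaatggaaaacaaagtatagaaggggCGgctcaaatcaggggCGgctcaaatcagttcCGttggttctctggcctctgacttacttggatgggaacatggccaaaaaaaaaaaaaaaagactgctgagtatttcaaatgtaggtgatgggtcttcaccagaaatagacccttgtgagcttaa
Adipoq, the adiponectin gene from the white adipocyte list, was 4.12 and 4.34 on NCD and 6.17 and 6.29 on HFD, a difference of 2.00 ± 0.20 (SE; limma adjusted p = 0.000205). Adipor2, an adiponectin receptor gene, differed by 1.72 ± 0.17, and Fabp4, a fatty acid-binding protein gene, by 1.41 ± 0.14. Plin1, the perilipin gene of the lipid droplet, differed by 1.01 ± 0.16.

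**Figure D5:**
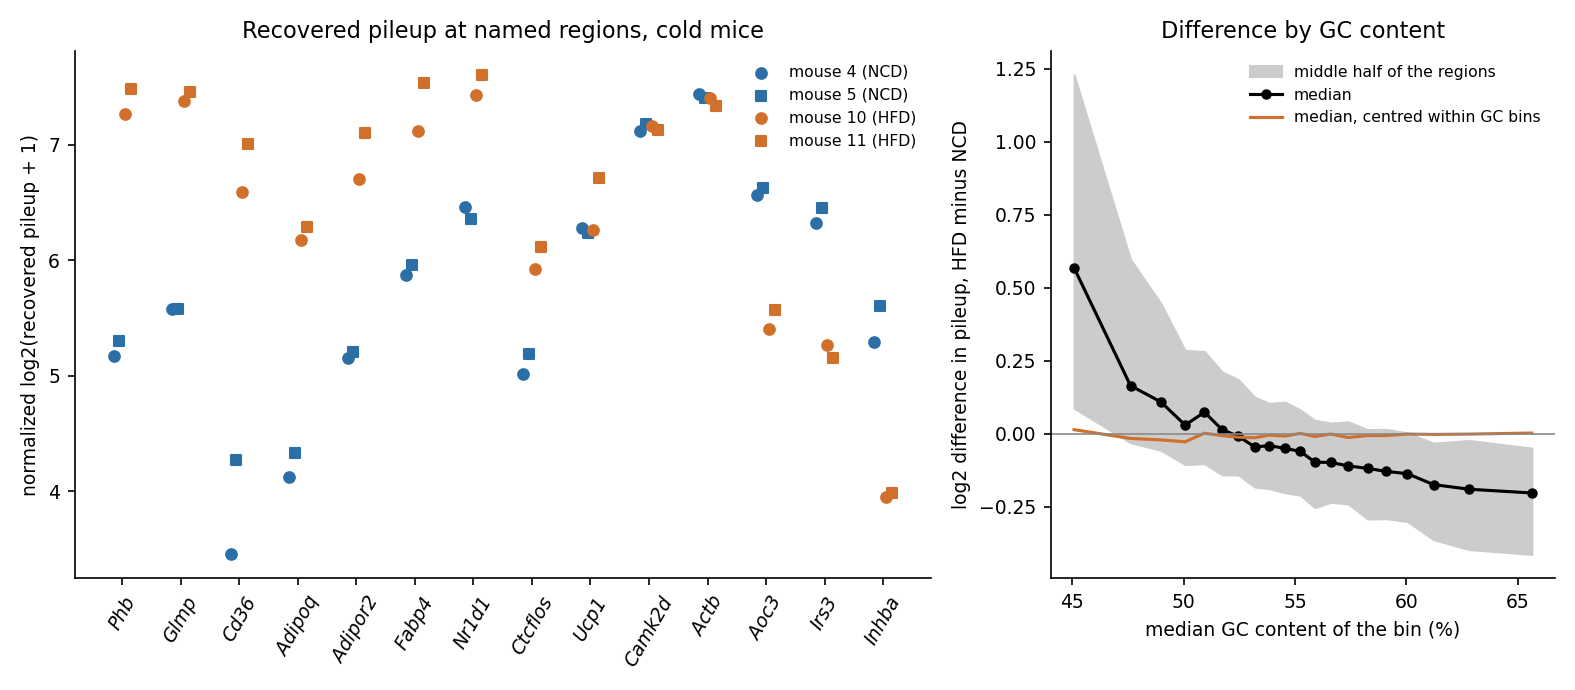
Left, normalized log2 of the recovered pileup plus 1 at named regions in each cold mouse (NCD mice 4 and 5, HFD mice 10 and 11). Phb, Cd36, Adipoq and Fabp4 separate by diet with HFD higher, Aoc3, Irs3 and Inhba with HFD lower, and Camk2d and Actb overlap. Right, log2 difference in pileup (HFD minus NCD) against the median GC content of 20 bins of regions, with the middle 50% of the regions shaded. The median falls from 0.57 in the bin poorest in GC to −0.20 in the richest.

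Brown adipocyte genes were less uniform. Ucp1 was 6.28 and 6.23 on NCD and 6.26 and 6.71 on HFD, so the diets overlapped (difference 0.23 ± 0.16, limma adjusted p = 0.386). Cidea (−0.06 ± 0.17), Elovl3 (0.36 ± 0.20) and the regulator Prdm16 (0.08 ± 0.16 and −0.29 ± 0.15 at its 2 regions) did not pass the test either. Ppargc1a, the coactivator of mitochondrial biogenesis, was higher by 1.14 ± 0.16 and Cox7a1, a subunit of cytochrome c oxidase, by 0.91 ± 0.17. Dio2, the deiodinase that activates thyroid hormone, was higher by 0.73 ± 0.20 (limma adjusted p = 0.0409), but its difference was 0.17 with GC centring and not called. In that list 3 of 16 regions were higher and 0 lower. Pparg, the master regulator of fat cell formation, did not pass at its upstream region (0.27 ± 0.10) and differed by 1.61 ± 0.40 at the other (limma adjusted p = 0.0262), which was not called with GC centring. Ctcflos, a non-coding gene named by the study, was higher by 0.92 ± 0.18 (limma adjusted p = 0.00968). Camk2d (−0.01 ± 0.09) and the control gene Actb (−0.05 ± 0.08) differed by less than their errors.

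Endothelial genes had 4 of 12 regions higher and 0 lower, with a median of 0.31, against the 6.67% and 2.51% over all start sites. These were Cdh5, Emcn, Pecam1 and Tek, by 0.98 to 1.42, all but Tek also with GC centring. With median centring Emcn differed by 2.28 and Tek by 1.85. The fatty acid oxidation list had 2 of 18 regions higher and 0 lower, and 1 higher and 4 lower with GC centring. Of 16 regions of clock genes 2 were higher and 1 lower. Nr1d1, the gene of the repressor REV-ERB alpha, was higher by 1.11 ± 0.11, Per1 by 0.90 ± 0.19, and Cry1 was lower, with −0.38 ± 0.10, though not with GC centring. De novo lipogenesis genes had 1 of 15 lower, at Pnpla3 (−0.49 ± 0.12).

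Regions lower on HFD were led by Aoc3, a vascular and adipocyte amine oxidase gene, and Irs3, an insulin receptor substrate of rodent fat cells. At Aoc3 the normalized log2 pileup was 6.56 in mouse 4 and 6.63 in mouse 5, against 5.41 in mouse 10 and 5.57 in mouse 11. The difference was −1.11 ± 0.15 (SE; limma adjusted p = 0.00122). At Irs3 the values were 6.32 and 6.45 against 5.27 and 5.15, a difference of −1.18 ± 0.17. Inhba, which encodes a subunit of activin, differed by −1.48 ± 0.24, Mga, a MAX-binding transcription factor gene, by −1.36 ± 0.22, and Vasn, a gene for a membrane protein that binds TGF-beta, by −1.17 ± 0.18. The rest of the 10 were Fam217a, the shared start of Gm10687 and Mcam, Esco2, Dzip1 and Ifitm10, and all 10 remained called with GC centring. With median centring Dzip1 (−0.58, limma adjusted p = 0.0945) and Ifitm10 (−0.36, limma adjusted p = 0.366) were not called, and Inhba differed by −0.72, Mga by −0.84 and Fam217a by −0.82. Of these 10, 8 had no warm value in the same fit because at least 1 warm list lacked a peak. Raw recovered pileups in mouse 10 were lowest at Fam217a (4.53), Ifitm10 (5.01), Dzip1 (5.49), Inhba (5.86) and Mga (6.31). The median over all peaks of mouse 10 was 22.1. The fits took recovered values as exact, so the SE leaves out the error of the recovery itself.

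The difference in pileup followed GC content across the regions. In the bin of 682 regions with a median GC of 45.1%, the median difference was 0.57, with 312 higher and 0 lower calls, and in the bin at 65.6% it was −0.20, with 2 higher and 48 lower. Median GC was 48.9% for regions higher on HFD, 58.8% for those lower and 55.2% for those not called. This is the direction in which the NCD-only and HFD-only sets differed in GC.

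The warm mice gave few calls. Fold enrichment called 0 of 10186 regions higher (0.0%) and 1 lower (0.00982%) on HFD by limma, with 833 at an unadjusted p under 0.05, and the pileup called 3 higher (0.0295%) and 0 lower (0.0%), with 733 at an unadjusted limma p under 0.05. Of 992 regions higher on HFD in the cold that had a warm value, 443 were higher in the warm mice too, against 49.8% of all 10186 warm regions. Of 113 lower ones, 75 were lower when warm. At Phb the warm difference was 0.01 ± 0.13, at Cd36 0.63 ± 0.19 and at Adipoq 0.08 ± 0.17, and none passed. The difference of the cold and warm diet differences was tested as an interaction. By fold enrichment 0 of 9842 regions were called in either direction (0.0%), with 360 at an unadjusted limma p under 0.05. By pileup 276 of 9827 regions (2.81%) had a larger HFD minus NCD difference in the cold and 20 (0.204%) a smaller one, and without mouse 7 there were 863 (6.56%) and 259 (1.97%) of 13160. Phb (interaction 1.79 ± 0.19, limma adjusted p = 0.00039), Adipoq (1.36 ± 0.26, limma adjusted p = 0.0091) and Fabp4 (1.12 ± 0.19, limma adjusted p = 0.00493) were among the larger ones. At Adipoq the raw recovered pileups were 38.5 and 45.4 in mice 1 and 2 and 14.0 and 60.0 in mice 7 and 8, against 23.7 and 25.6 in mice 4 and 5 and 20.1 and 75 in mice 10 and 11. Raw values are not on one scale between mice, and the test used normalized ones.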

How the data were processed

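H3K4me3 ChIP-seq peak lists of 8 mice and the H3K27ac lists of the 4 cold mice were used. Per the labels and the study's methods, the authors trimmed reads with cutadapt, aligned them to GRCm38 with Bowtie2 and called peaks with MACS2 against the input of each mouse. The sources used here do not give the versions of these tools. The deposited lists hold the fold enrichment at each summit, which is a ratio to the local background, and the −log10 p-value and −log10 q-value of the authors' peak caller. Read depth is not given in the lists. Peaks were joined where they overlapped by at least 1 bp and assigned to GENCODE start sites within 1000 bp of a summit. The members and gene lists were chosen with earlier results of these data known.

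Library values were compared by two-sided exact permutation tests. Log2 fold enrichment at regions with a peak in all lists was quantile-normalized and fitted with limma 3.58.1 in R 4.3.3, with the Benjamini-Hochberg adjustment. The ChIP pileup was recovered by solving the Poisson p-value and the fold, with a pseudocount of 1, for pileup and background. Of the possible solutions, the pileup of the one with the higher background was taken. It was whole within 0.01 for nearly all peaks of mice 8 and 11 and for 4.19% to 11.0% in the others, so the pileups of those are on a scaled basis, and no count test was used. In mice 10 and 11, 132 and 42 peaks gave no solution and were left out, and in mice 7 and 8, 3 and 5. The pileup fits, the GC bins and the genes said to be singled out later were chosen after seeing the data. The scripts were tested on simulated data.

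Named genes were a preset list, the 10 strongest regions at start sites of each set by the lower percentile of −log10 p, the 10 with the smallest adjusted p in each direction of a fit, and up to 5 members of each gene list that were diet-sorted or passed the fit. That rule was written for the fold fit, which had no calls, and was applied to the pileup fit afterwards. Some regions that met it are not reported here. Where the labels and methods do not say that lists come from separate animals, p-values measure the spread between these lists only.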

Additional observations from a re-analysis of the deposited data

Results flagged for a closer look

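The HFD minus NCD difference in recovered pileup differed between cold and warm mice at 276 regions, where it was larger in the cold, and at 20, where it was smaller, of 9827 regions tested (limma interaction, adjusted p under 0.05). The regions with the smallest adjusted p were at Glmp, Med6, Rpl7l1 and Phb, by 1.80, 2.20, 1.52 and 1.79 on the log2 scale. Fold enrichment gave 0 such regions in either direction by limma, with 360 at an unadjusted p under 0.05. Mice 4 and 5, which form the cold NCD group, correlated with the warm NCD mice at 0.802 to 0.824 in pileup and mice 10 and 11 at 0.868 to 0.886, and the part of these libraries cannot be told apart from diet and temperature.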

How the results depend on the processing

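With the 17195 strongest peaks of each list the NCD-only and HFD-only regions numbered 723 and 495. With these peaks 5 list genes were NCD-only, against 272 over all genes. With the 10000 strongest peaks 156 regions were NCD-only. With a −log10 q of at least 5 there were 64 HFD-only regions, and with that limit on presence alone 803 NCD-only and 39 HFD-only. Leaving out each mouse in turn gave 1346 to 5100 NCD-only and 283 to 4499 HFD-only regions. Without each mouse in turn, the HFD minus NCD difference in log10 peak number ran from −0.117 (without mouse 11) to 0.0298 (without mouse 10), in the share of peaks at start sites from −4.53 (without mouse 10) to 15.7 percentage points (without mouse 11), and in median width from −2.0 bp (without mouse 11) to 133 bp (without mouse 10). For HFD-only regions, the diet difference in warm H3K4me3 was 2.31 points without mouse 7 and −38.0 without mouse 8. Their difference in H3K27ac was −5.86 with equal numbers, −6.48 at a −log10 q of at least 5, −5.79 without mouse 5, −9.95 without mouse 11 and 11.8 without mouse 10. The fold fit called 256 higher and 6 lower by −log10 p, 0 to 6 higher and 0 to 2 lower without each mouse, and 1054 and 393 by pileup. The pileup fit called 2116 higher when median-centred, and 0 to 722 higher and 0 to 574 lower without each mouse, where the lone mouse is assumed to vary like the other group. In the warm mice the pileup called 3 higher and 0 lower, and median centring of the fold called 0 lower. The interaction by pileup called 276 and 20, and 863 and 259 without mouse 7, which adds regions to the test (13160). By fold Ldhb turned to −0.080 and Akt2 to −0.032. The causes of the other changes were not tested. Of the other values for the comparisons, 78 kept their direction and side of the threshold. Of the values at named regions, 45 lost that side with fold in place of pileup and 8 kept it. Fold called 0 of 13716 regions, so these 8 were not called by pileup either. With GC centring 5 lost that side and 50 kept it, and with median centring 3 lost it and 52 kept it. No paired analysis was possible because the mouse numbers differ between diets.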
